A study of Mus musculus with 9 samples.

Results

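Potassium channels and the related hyperpolarization-activated HCN channels were examined in 9 RNA libraries of cortical interneurons. The genes were all those whose symbol is Kcn followed by letters and a number, or Hcn followed by a number, and no measured value entered this choice. The choice gave 98 of the 23319 gene symbols in the deposited tables. By symbol, 40 encode pore-forming voltage-gated (Kv) subunits, 16 auxiliary subunits, 8 calcium- and sodium-activated channels, 14 two-pore-domain (K2P) leak channels, 15 inward rectifiers (Kir) and 4 HCN channels. The remaining member, Kcnq1ot1, is a noncoding transcript.

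Each library held 150 green fluorescent cells, picked by hand under a stereomicroscope from mice at postnatal day 5. The cells came from L2/3 strips of medial prefrontal cortex and of anterior cingulate cortex, dissociated with Pronase E and DNaseI. Every mouse carried the Cre-dependent fluorescent reporter Ai47. The group called Nkx2.1 here holds 3 libraries of Nkx2.1-CreER;Ai47 mice, with tamoxifen at E17 (embryonic day 17), which the protocol in the labels calls chandelier cell (ChC) pups. The SOM group holds 3 libraries of SOM-Cre;Ai47 mice and the VIP group 3 of VIP-Cre;Ai47 mice, both without tamoxifen, so tamoxifen and line cannot be told apart. In each line the Cre is driven by the named gene, and cells that had used that gene at any earlier time, or in the Nkx2.1 line while tamoxifen was active, stay labelled. The labels do not say whether replicates are different animals. The p-values therefore measure the spread between these samples only, which may be technical.

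As background, potassium channels set how far a neuron rests from threshold and how quickly it recovers from a spike. Kv channels repolarize the membrane, calcium- and sodium-activated channels follow the ions that spikes let in, and K2P and Kir channels carry the current at rest. HCN channels share the Kv fold but open on hyperpolarization and pass sodium as well as potassium. In cortical interneurons, Kv3 channels are known for fast spiking, Kv4 channels with their KChIP and DPP partners for the A-type current, and Kv1 and Kv7 channels for the axon and its initial segment.

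The pore of these channels is lined by a short selectivity filter, and its coding sequence is shown for the pore genes on which the results turn. Each stretch is the sense strand, 33 bases of coding exon, from the GENCODE M21 transcript with the longest coding sequence on GRCm38, and the 5 filter codons are in capitals. Coordinates are those of the first and last base. The stretches of Kcnd2 and of the first Kcnk1 filter are spliced across an intron. Kcnk1 has its filter in each of its pore domains.
Kcnd2, plus strand, chr6:21217397-21714150: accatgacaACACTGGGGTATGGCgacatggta
Kcnc2, plus strand, chr10:112456220-112456252: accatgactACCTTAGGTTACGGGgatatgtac
Kcnt1, plus strand, chr2:25894358-25894390: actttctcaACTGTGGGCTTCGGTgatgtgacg
Kcnt2, plus strand, chr1:140425269-140425301: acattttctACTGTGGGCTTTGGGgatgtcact
Kcnma1, minus strand, chr14:23528404-23528436: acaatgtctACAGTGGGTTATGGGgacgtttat
Kcnk1 first filter, plus strand, chr8:125995799-126025028: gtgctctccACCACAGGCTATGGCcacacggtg
Kcnk1 second filter, plus strand, chr8:126025320-126025352: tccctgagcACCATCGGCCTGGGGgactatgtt
The paralogues Kcnt1 and Kcnt2 had 13 of the 15 filter bases and 26 of all 33 bases in common, the highest numbers of any pair shown. Kcnd2 and the second Kcnk1 filter shared 7 of 15 filter bases, the lowest number among these stretches. The filters of Kcnk1 shared 9 of 15 bases with each other.

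Reads in genes numbered 6484488 to 12465997 per library, and the channel genes took 0.237% to 0.440% of them. Levels are given as CPM, counts scaled to a common library size with TMM factors, and 3 reads, taken as the floor of detection, came to 0.241 to 0.463 CPM before TMM scaling. A read was found for 51, 34 and 49 channel genes in Nkx2.1 replicates 1 to 3, for 55, 63 and 61 in the SOM replicates and for 45, 59 and 54 in the VIP replicates. With every library thinned to 6484488 reads the numbers were 50, 34 and 48 in Nkx2.1, 53, 63 and 61 in SOM and 45, 59 and 52 in VIP libraries. The markers of the lines followed the labels: Sst stood at 36.1, 0 and 16.6 CPM in Nkx2.1, 1594, 2163 and 1445 CPM in SOM and 0.123, 0 and 0 CPM in VIP libraries. Vip stood at 3.52, 0 and 0 CPM in Nkx2.1, 0, 0 and 1.26 CPM in SOM and 410.3, 799 and 692 CPM in VIP libraries. Nkx2-1 itself had 12, 10 and 1 reads in Nkx2.1 libraries, 1 read in SOM libraries and 0 in VIP libraries.

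Markers of other cell types differed between groups as well. The summed level of 7 oligodendrocyte lineage markers, each with a read in some library, was 259 to 302 CPM in Nkx2.1, 96.6 to 194 CPM in SOM and 1.72 to 98.3 CPM in VIP libraries, with no overlap between Nkx2.1 and the other groups. Single genes carried much of these sums. In Nkx2.1 replicate 2, Pdgfra alone gave 258 CPM, while Olig1, Olig2, Sox10 and Cspg4 had 0 reads. The 8 astrocyte markers, each with a read in some library, summed to 3563 CPM in Nkx2.1 replicate 1 and to 663 and 253 CPM in Nkx2.1 replicates 2 and 3, against 63.9 to 211 CPM in SOM and 262 to 412 CPM in VIP libraries. Slc1a2 gave most of the VIP sums, at 372, 215 and 229 CPM, and Fabp7 followed in each, at 31.8, 110 and 30.2 CPM. Slc1a3 reached 63.2 CPM in VIP replicate 2, while Aqp4, Gfap and Aldh1l1 were at most 0.246 CPM in that group. These last markers stood at 181, 29.4 and 158 CPM in Nkx2.1 replicate 1. Aqp4 and Aldh1l1 had 0 reads in Nkx2.1 replicate 2, with Gfap at 43 CPM. Aqp4 and Gfap had 0 reads in Nkx2.1 replicate 3, with Aldh1l1 at 82.7 CPM. Fabp7 and Slc1a3, at 326 and 293 CPM, gave most of the sum of Nkx2.1 replicate 2. Excitatory neuron markers (7 of 7 with reads) summed to 0 to 116 CPM in Nkx2.1, 1.49 to 9.76 CPM in SOM and 3.28 to 156 CPM in VIP libraries. Microglial and vascular markers reached at most 17.8 and 17.6 CPM in any library, with Cx3cr1, Cldn5, Kdr, Pdgfrb and Vtn at 0 reads in all 9, and the 2 counted erythrocyte markers, Hba-a1 and Hba-a2, had no read. The chromosomal neighbours of these markers were not examined, so their 0 reads may be counting gaps and are no measure of absence. The part of these cells in the channel results was not tested. In bulk RNA, fewer cells that use a gene and less RNA of it per cell cannot be told apart.

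Of the 98 channel genes, 78 had a read in some library and 58 passed the filter on low counts, which kept 10728 genes in all. Of the sodium-activated channels, Kcnt2 (Slick), the channel gene with the smallest edgeR adjusted p, was near the floor in Nkx2.1 cells and near 100 CPM or above in VIP cells, and Kcnt1 (Slack) was higher in every Nkx2.1 library than in any VIP library. Kcnd2, Kcnc2, Kcnma1 and the BK subunit Kcnmb2 also lay above all VIP libraries in every Nkx2.1 library, and Kcnk1, Kcnc1 and Hcn2 were lower. None of these differences passed an adjusted p of 0.05 in edgeR's quasi-likelihood test, in which genes varied between libraries with a common biological coefficient of variation of 1.40 on 6 residual degrees of freedom. Kcnt2, Kcnk1 and Hcn2 passed the filter on low counts through SOM or VIP libraries, so their lower Nkx2.1 level was part of their selection. Kcnt1 passed it through Nkx2.1 and SOM libraries, so its lower VIP level was part of its selection.

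**Figure D1:**
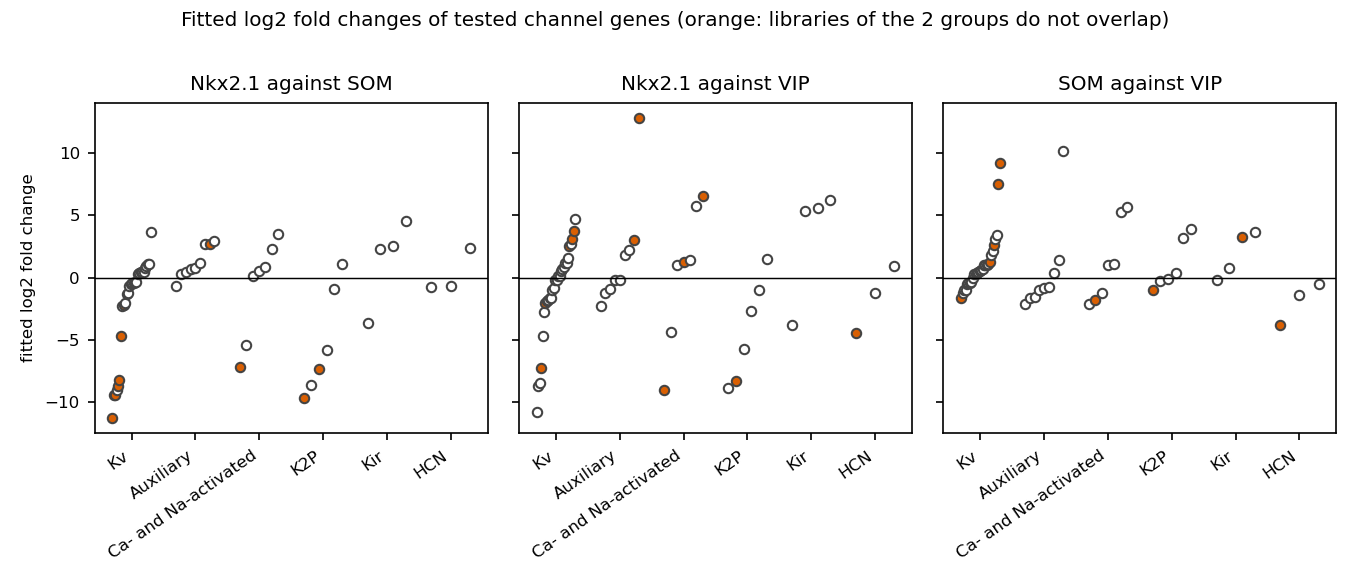
Fitted log2 fold changes (vertical axis) of the tested channel genes in each of the 3 comparisons, grouped by class along the horizontal axis and sorted within a class, with Kcnq1ot1 left out. Filled orange points are genes whose libraries do not overlap between the 2 groups, 11 for Nkx2.1 against SOM, 12 for Nkx2.1 against VIP and 9 for SOM against VIP, and the fitted value of a gene with 0 reads in a group is no measured size.

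In the comparison of Nkx2.1 with SOM libraries edgeR called 0 of 58 channel genes, where it called 0.0932% of all tested genes, 0.0652% higher and 0.0280% lower. At an unadjusted p under 0.05, 1 channel gene was higher (2.92% of all genes) and 10 were lower (8.38% of all genes). DESeq2, run as an alternative on all genes, gave an adjusted p for 52 of the 98 channel genes. It called 1 higher (1.93% of genes with a value) and 7 lower (7.17%). Kcnmb2 lay higher in every Nkx2.1 library than in any SOM library (5.90% of all genes did), and 10 genes lay lower (14.0% of all genes): Kcna4, Kcna6, Kcnc4, Kcnf1, Kcnh2, Kcnk1, Kcnk12, Kcns3, Kcnt2 and Kcnv1. The median fitted log2 fold change of the 58 was -0.09, with 29 above and 29 below 0, beside a median of -0.0075 over all tested genes.

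For Nkx2.1 against VIP edgeR called 0 of 58, where it called 0.308% of all tested genes, 0.177% higher and 0.130% lower. At an unadjusted p under 0.05, 6 channel genes were higher (5.73% of all genes) and 6 were lower (9.43%). DESeq2 gave an adjusted p for 54 of the 98 channel genes and called 6 higher (4.37% of genes with a value) and 6 lower (8.62%). The libraries did not overlap for 7 higher genes (7.31% of all genes), Kcnc2, Kcnd2, Kcnh7, Kcnip3, Kcnma1, Kcnmb2 and Kcnt1, and for 5 lower genes (12.8%), Hcn2, Kcnc1, Kcnh2, Kcnk1 and Kcnt2. The median log2 fold change was -0.17, with 28 genes above and 30 below 0, beside 0.0028 over all genes.

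For SOM against VIP edgeR called 0 of 58, where it called 0.0746% of all tested genes, 0.0559% higher and 0.0186% lower. At an unadjusted p under 0.05, 5 channel genes were higher (4.63% of all genes) and 0 were lower (2.36%). DESeq2 gave an adjusted p for 54 of the 98 channel genes and called Kcna4 and Kcnip3 higher (3.11% of genes with a value were) and 0 lower (1.63%). The libraries did not overlap for 5 higher genes (10.9% of all genes), Kcna4, Kcnd2, Kcnj11 and Kcns3 among them, and for 4 lower genes (9.0%), Hcn2, Kcnc1, Kcnk1 and Kcnt2. The median log2 fold change was 0.38, with 33 genes above and 25 below 0, beside -0.0037 over all genes. No test set these counts against those of all genes, so nothing particular to channel genes is read from them, and the 3 comparisons share their libraries in pairs.

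The spread within a group was wide for channel genes. In the Nkx2.1 libraries, 46 channel genes reached 10 CPM in some library, and 21 of these (45.7%) had 0 reads in another library of the group, where 32.4% of all genes did. The same held for 13 of 58 (22.4%; all genes 14.8%) in the SOM libraries and for 13 of 50 (26.0%; all genes 18.6%) in the VIP libraries. Channel genes at 10 CPM or more in all 3 libraries numbered 14 in Nkx2.1, 21 in SOM and 19 in VIP. Kcna1, for example, an axonal Kv1 subunit, had 0, 0 and 1131 reads in Nkx2.1, 1, 0 and 0 in SOM and 0, 164 and 1 in VIP libraries.

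**Figure D2:**
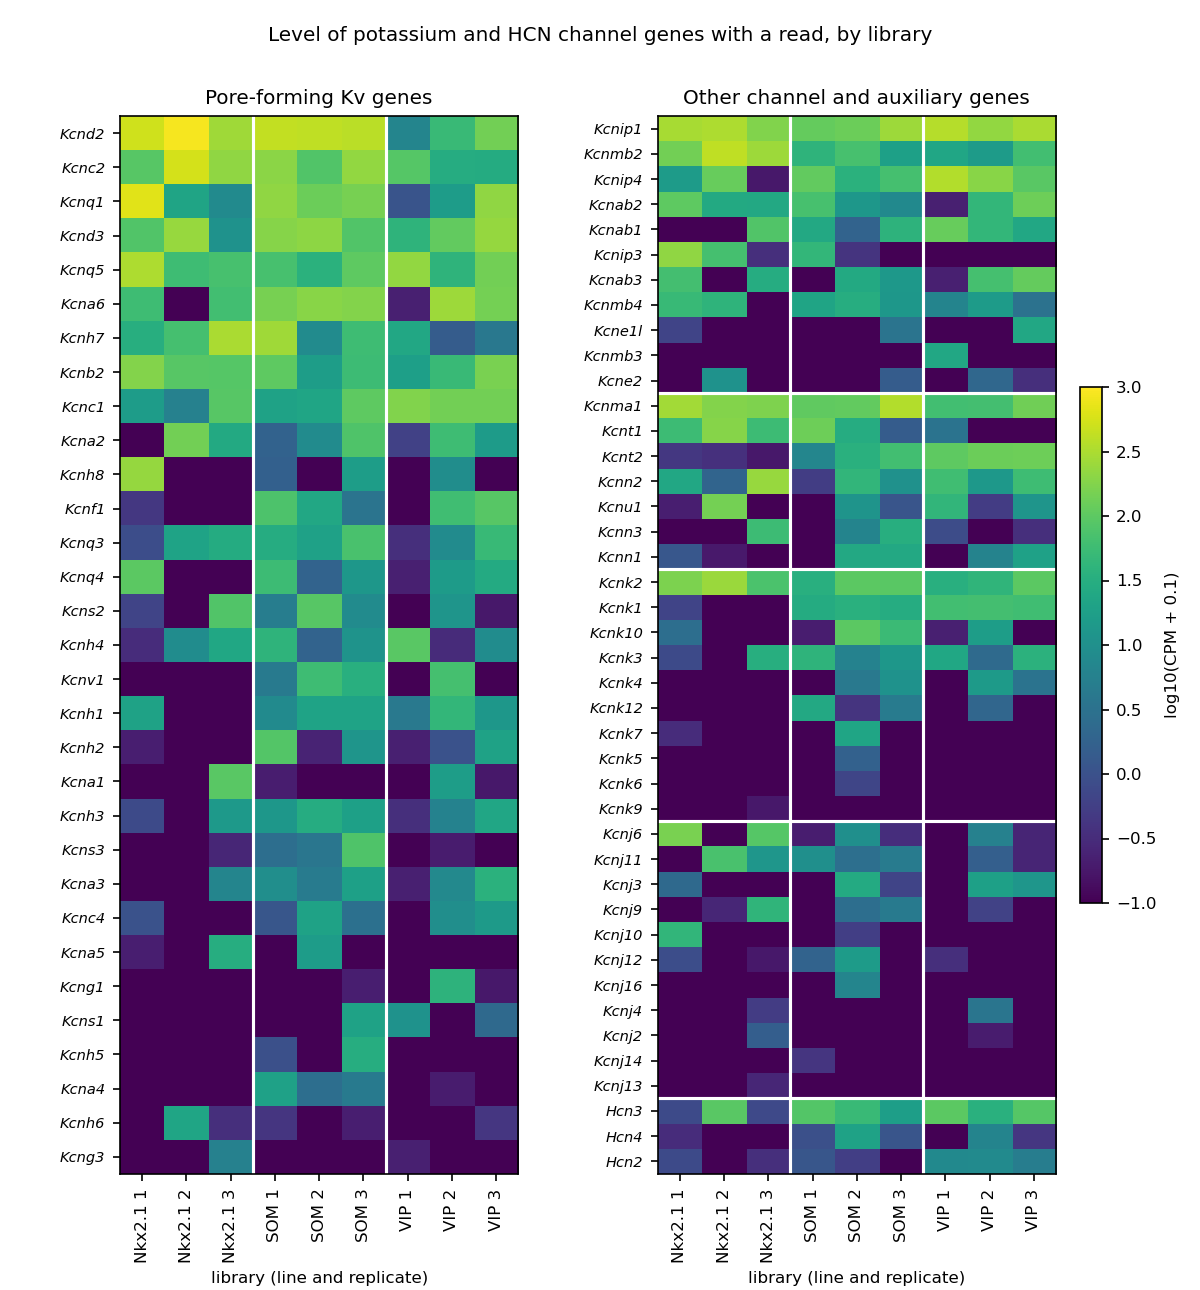
Level of channel genes with a read in each of the 9 libraries (columns: Nkx2.1, SOM and VIP replicates), as log10(CPM + 0.1) in colour, with classes separated by white lines and genes sorted by mean level. Kcnd2, Kcnip1, Kcnk2 and Kcnma1 are bright in nearly all columns, while dark cells beside bright ones within a group mark the genes found in some libraries of a group and not in others.

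Corrected for exon length, the highest levels over the 9 libraries were those of Kcnd2, with a mean of 66.6 CPM per kb of exon, and of its KChIP partner Kcnip1, with 39.3. The BK subunit Kcnmb2 had 37.2, the KChIP Kcnip4 30.2, the Kv3 gene Kcnc2 23.6, the leak channel Kcnk2 19.8 and the Kv1 gene Kcna6 19.7 CPM per kb. Of the HCN genes, Hcn3 had 12.6, Hcn2 0.813 and Hcn4 0.53 CPM per kb.

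Among the pore-forming Kv genes, 34 of 40 had a read and 28 were tested. Their summed level was 2252 ± 498 CPM in Nkx2.1, 2113 ± 290.5 CPM in SOM and 1292 ± 441 CPM in VIP libraries (SD, n = 3 each). Each SOM library (2265, 1778 and 2295 CPM) lay above each VIP library (861, 1273 and 1742 CPM), while Nkx2.1 replicate 3 (1699 CPM) lay below VIP replicate 3. That last order rests on Kcnq1, at 8.12 CPM in Nkx2.1 replicate 3 and 213 CPM in VIP replicate 3. The level of Kcnq1 is uncertain, as its reads cannot be told from those of Kcnq1ot1.

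**Figure D3:**
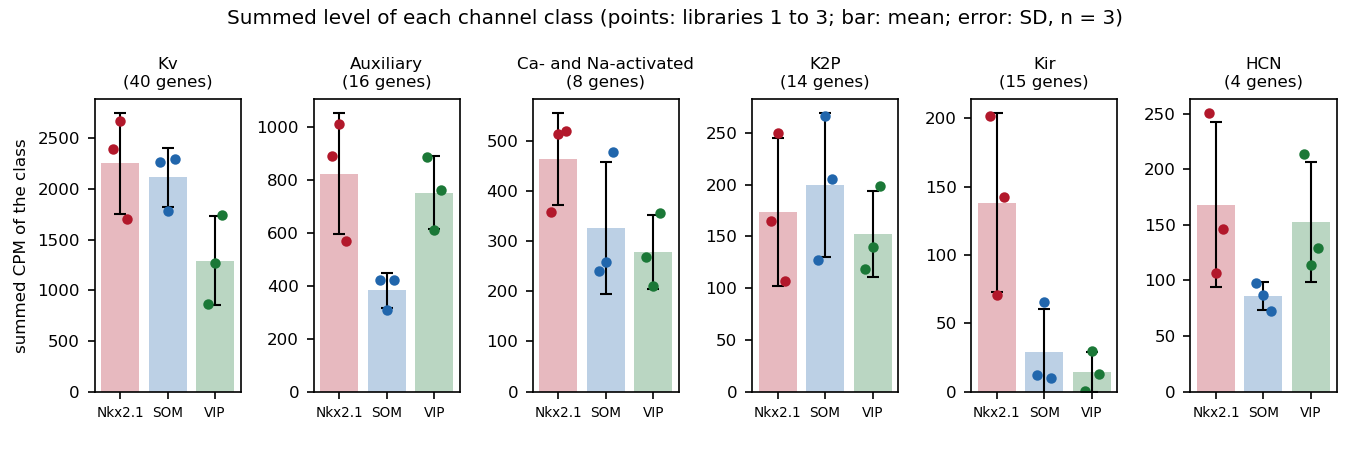
Summed CPM of each class of channel genes in the Nkx2.1, SOM and VIP libraries (points: replicates 1 to 3; bars: mean; error bars: SD, n = 3). The Kir sum is higher in all 3 Nkx2.1 libraries than in any other, the auxiliary sum is lowest in the SOM libraries, and the K2P sum overlaps between all groups.

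Kcnd2 (chr6:21215503-21729805, plus strand) encodes Kv4.2, the main subunit of the somatodendritic A-type current, and had the highest level per kb of exon of all channel genes. It stood at 511, 892 and 266 CPM in Nkx2.1, 425, 419 and 379.9 CPM in SOM and 6.5, 51 and 139 CPM in VIP libraries. Every VIP library lay below every library of the other groups, and the SOM libraries lay closest together. Against VIP, Kcnd2 was 8.51-fold higher in Nkx2.1 libraries, a log2 fold change of 3.09 (SE 0.91) with an edgeR adjusted p of 0.184 and a DESeq2 adjusted p of 0.0223. It was 6.24-fold higher in SOM than in VIP libraries, log2 2.64 (SE 0.89), with adjusted p of 0.482 by edgeR and 0.162 by DESeq2. Its relative Kcnd3 (Kv4.3) overlapped in all groups, at 81.9, 243 and 10.8 CPM in Nkx2.1, 186, 210.5 and 81.6 CPM in SOM and 39.4, 111 and 233 CPM in VIP libraries. Kcnd1 had no read.

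The KChIP subunits bind the Kv4 channels and sense calcium. Kcnip1 was at 301, 327 and 172 CPM in Nkx2.1, 111, 128 and 258 CPM in SOM and 363, 223 and 308 CPM in VIP libraries, overlapping in every comparison. Kcnip4 was at 15.6, 119 and 0.0828 CPM in Nkx2.1, 108, 35.5 and 66.7 CPM in SOM and 351, 196 and 93.1 CPM in VIP libraries, with overlap in every comparison. Kcnip3 (chr2:127456498-127522094, minus strand), also known as DREAM or calsenilin, had 1908, 770 and 3 reads in Nkx2.1 libraries and 413, 2 and 0 in SOM libraries, against 0 in all VIP libraries. Against a floor of 3 reads over the VIP group it was at least 821-fold higher in Nkx2.1 and at least 167-fold higher in SOM libraries. Kcnip3 passed the filter through Nkx2.1 and SOM libraries, so a lower level in VIP was part of its selection. Adjusted p values were 0.233 (edgeR) and 0.000658 (DESeq2) for Nkx2.1 against VIP and 0.604 and 0.0301 for SOM against VIP, and 3 of the 6 Nkx2.1 and SOM libraries held 3 reads or fewer. The SOM bound and the DESeq2 call for SOM against VIP rested on SOM replicate 1. The lack of overlap between Nkx2.1 and VIP rested on the 3 reads of Nkx2.1 replicate 3, at the floor. Over the 7 Kv4 and KChIP genes, 5 of them tested, the summed level was 1074 ± 601 CPM in Nkx2.1, 818 ± 48.9 CPM in SOM and 704 ± 107 CPM in VIP libraries (SD, n = 3 each).

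The Kv3 genes, the fast delayed rectifiers, include Kcnc2 (Kv3.2; chr10:112271121-112467024, plus strand) and Kcnc1 (Kv3.1; chr7:46396497-46438704, plus strand). Kcnc2 stood at 91.2, 554 and 219 CPM in Nkx2.1, 199, 80.8 and 223 CPM in SOM and 88.1, 29.4 and 28.7 CPM in VIP libraries. The lowest Nkx2.1 value was just above the highest VIP value, and the ratio of means was 5.91, log2 2.56 (SE 0.85), with adjusted p of 0.227 by edgeR and 0.0393 by DESeq2. Kcnc1 was lowest in Nkx2.1 replicate 2, at 16.2, 5.58 and 89.8 CPM in Nkx2.1, 19.95, 22.2 and 103 CPM in SOM and 176, 141 and 142 CPM in VIP libraries. The VIP libraries were close together and above all others, with log2 fold changes of -2.04 (SE 1.2) for Nkx2.1 against VIP and -1.66 (SE 1.19) for SOM against VIP (edgeR adjusted p 0.49 and 1). As a sum the 4 Kv3 genes stood at 335 ± 226 CPM in Nkx2.1, 231 ± 98.2 CPM in SOM and 226 ± 52.8 CPM in VIP libraries (SD, n = 3 each), and the groups overlapped. Kcnc4 was at 0.908, 0 and 0 CPM in Nkx2.1 libraries, below each of the SOM values of 1.06, 20.1 and 2.86 CPM, log2 -4.69 (SE 2.77) at an edgeR adjusted p of 0.606. This lack of overlap rested on 8 reads in Nkx2.1 replicate 1 against 10 reads in SOM replicate 1. Kcnc4 passed the filter through SOM and VIP libraries, so a lower level in Nkx2.1 was part of its selection.

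**Figure D4:**
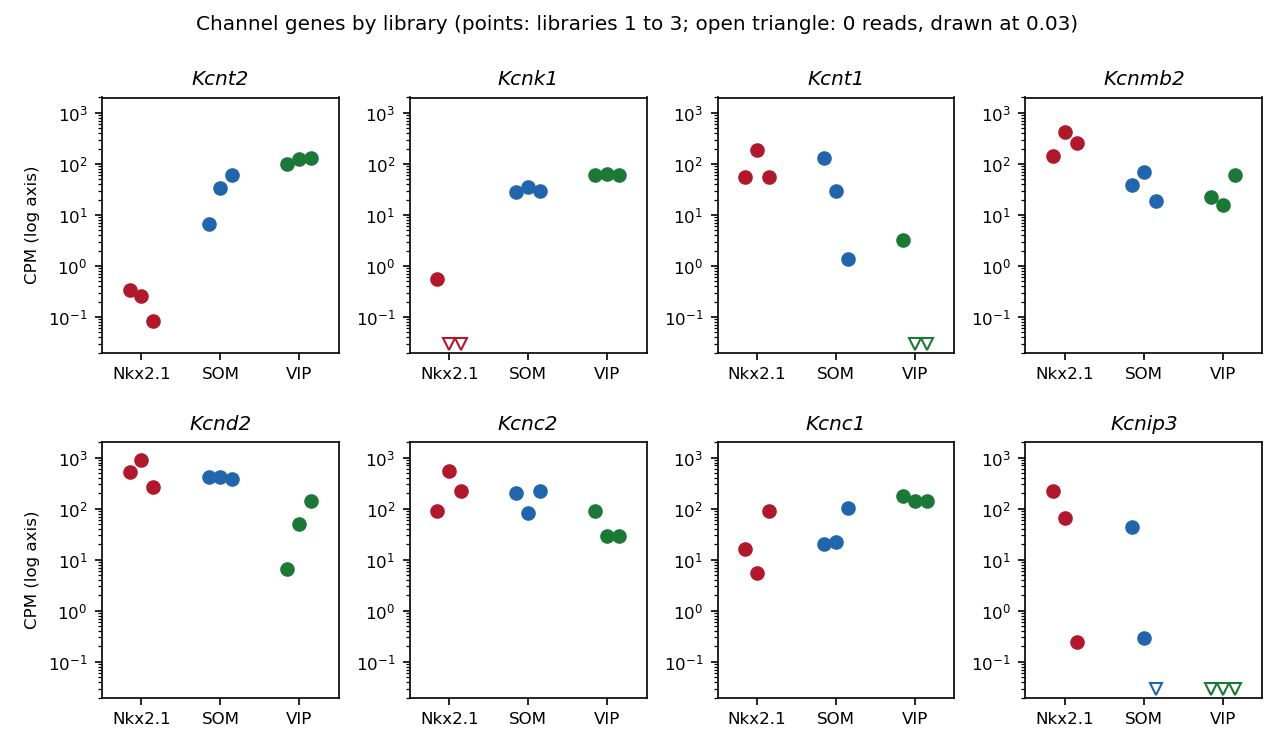
CPM on a log axis of Kcnt2, Kcnk1, Kcnt1, Kcnmb2, Kcnd2, Kcnc2, Kcnc1 and Kcnip3 in the 3 Nkx2.1, 3 SOM and 3 VIP libraries (points: replicates 1 to 3 from left to right; open triangles at 0.03 mark 0 reads). Kcnt2 and Kcnk1 lie lowest in the Nkx2.1 libraries and highest in the VIP libraries without overlap, and Kcnt1, Kcnmb2, Kcnd2, Kcnc2 and Kcnip3 lie higher in the Nkx2.1 than in the VIP libraries.

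Of the 6 subunits tied to the axon and its initial segment, 5 were tested. Kcnq3 and Kcnq5, which carry M-current, overlapped in every comparison, with means of 16.7 ± 14.4 and 151 ± 152 CPM in Nkx2.1, 39.96 ± 27 and 69 ± 34.1 CPM in SOM and 19.3 ± 26.3 and 134 ± 90.4 CPM in VIP libraries (SD, n = 3). Kcna4 (Kv1.4; chr2:107290639-107298502, plus strand), the inactivating Kv1 subunit, had 0 reads in all Nkx2.1 libraries, 183, 18 and 38 reads in SOM and 0, 1 and 0 in VIP libraries. It was at least 105-fold lower in the Nkx2.1 than in the SOM libraries, with adjusted p of 0.309 (edgeR) and 0.0045 (DESeq2). Kcna4 passed the filter through the SOM libraries, so a higher level in SOM was part of its selection. The pooled ratio of SOM to VIP was 288, with a 95% counting interval of 51.2 to 11422 and adjusted p of 0.465 (edgeR) and 0.0289 (DESeq2). Such intervals and floors cover counting error only: no molecular identifiers mark these reads, so they are not independent molecules. Kcna6 (Kv1.6) was at 57.4, 0 and 60.5 CPM in Nkx2.1 and 152, 193 and 183 CPM in SOM libraries, without overlap, log2 -2.16 (SE 2.01) at an edgeR adjusted p of 0.845.

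Electrically silent Kv subunits do not form channels alone and modify Kv2 channels. Of 10 such genes, 5 were tested, and 4 of these (Kcnf1, Kcns1, Kcns3 and Kcnv1) had 0 to 3 reads over the Nkx2.1 libraries together, so that they passed the filter through other groups, and a lower level in Nkx2.1 than in some other group was part of their selection. The summed CPM of the 10 was 0.908, 0 and 87 in Nkx2.1, 88, 177 and 143 in SOM and 10.9, 176 and 95.3 in VIP libraries, and Kcns2, at 81.2 CPM, made up most of the value of Nkx2.1 replicate 3. Kcns3 (chr12:11090202-11151056, minus strand), known from parvalbumin cells of cortex, had 0, 0 and 2 reads in Nkx2.1, 25, 24 and 680 in SOM and 0, 1 and 0 in VIP libraries. Most of its SOM reads came from replicate 3. Kcns3 passed the filter through the SOM libraries alone, so a higher level in SOM than in VIP was also part of its selection. By the pooled ratio Kcns3 was 478-fold lower in Nkx2.1 than in SOM (95% counting interval 132 to 3956; edgeR adjusted p 0.341), and 878-fold higher in SOM than in VIP (157 to 34742; edgeR adjusted p 0.46).

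Kcnv1 had 0 reads in Nkx2.1, 41, 388 and 287 reads in SOM and 0, 649 and 0 reads in VIP libraries. It was at least 313-fold lower in the Nkx2.1 than in the SOM libraries (edgeR adjusted p 0.375, DESeq2 5.65e-10), and its call by DESeq2 against VIP (adjusted p 3.18e-10) rested on VIP replicate 2 alone. Kcnf1 had 3, 0 and 0 reads in Nkx2.1, 717, 169 and 29 in SOM and 0, 565 and 1133 in VIP libraries. Its pooled ratio was 400.1-fold lower in Nkx2.1 than in SOM (136 to 1944) and 616-fold lower than in VIP libraries (211 to 2991; edgeR adjusted p 0.367 and 0.242). The Kv2 gene Kcnb2 was found in all 9 libraries and overlapped in every comparison, at 182, 91.2 and 87.3 CPM in Nkx2.1, 100.1, 16.6 and 55.3 CPM in SOM and 18, 51.8 and 155 CPM in VIP libraries. Kcns1 had 0 reads in Nkx2.1 libraries, 0, 0 and 176 in SOM and 88, 0 and 27 in VIP libraries, so that its DESeq2 call for Nkx2.1 against SOM (adjusted p 5.34e-06) rested on 1 SOM library.

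The ether-a-go-go family (Kcnh) held the remaining Kv genes of note. Kcnh7 (Erg3; chr2:62693414-63184287, minus strand) was at 32.2, 65.2 and 315 CPM in Nkx2.1, 268, 8.44 and 56.3 CPM in SOM and 25.3, 1.34 and 3.85 CPM in VIP libraries. Nkx2.1 lay above VIP without overlap, 13.5-fold in the means and log2 3.76 (SE 1.62) in the fit, at adjusted p of 0.312 (edgeR) and 0.067 (DESeq2). Kcnh2 (Erg1), whose current repolarizes the heart, had 1, 0 and 0 reads in Nkx2.1, 792, 1 and 106 in SOM and 1, 9 and 247 in VIP libraries. Its pooled ratio was 1179-fold lower in Nkx2.1 than in SOM (211 to 46637) and 279.8-fold lower than in VIP libraries (49.8 to 11095). The edgeR adjusted p were 0.359 and 0.299. However, SOM replicate 2 and VIP replicate 1 held 1 read each, at 0.148 and 0.123 CPM against 0.114 CPM in Nkx2.1 replicate 1. The lack of overlap for Kcnh2 thus rests on 1 read against 1 read, under the floor. Kcnh2 also passed the filter through SOM and VIP libraries, so a lower level in Nkx2.1 was part of its selection.

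Of the other auxiliary genes, the Kv1 beta subunits Kcnab1, Kcnab2 and Kcnab3 overlapped in every comparison. Kcnab2 was at 101, 26.8 and 25.7 CPM in Nkx2.1, 69.6, 12.9 and 7.77 CPM in SOM and 0.123, 44.8 and 132 CPM in VIP libraries. The Kcne family of single-span subunits was near absent, with 3 of 5 genes at 0 reads, Kcne2 at 3.61 ± 6.25 CPM in Nkx2.1, 0.457 ± 0.792 CPM in SOM and 0.771 ± 1.13 CPM in VIP libraries (SD, n = 3), and Kcne1l at 24.6 CPM in VIP replicate 3 and at most 3.32 CPM elsewhere. As a class, the 16 auxiliary genes summed to 889.5, 1010.2 and 567 CPM in Nkx2.1, 419, 306 and 421 CPM in SOM and 885, 608 and 759 CPM in VIP libraries, and every SOM library lay below all others.

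Sodium-activated potassium channels are encoded by Kcnt1 and Kcnt2, which can form mixed channels. Kcnt2 (chr1:140246158-140612067, plus strand) had 3, 3 and 1 reads in Nkx2.1 libraries, 63, 233 and 530 in SOM and 821, 1224 and 1592 in VIP libraries. This came to 0.341, 0.254 and 0.0828 CPM in Nkx2.1, 6.69, 34.5 and 60.6 CPM in SOM and 101, 126 and 131 CPM in VIP libraries. Each Nkx2.1 library held 3 reads or fewer, the groups did not overlap in any comparison, and the VIP libraries lay close together. By the ratio of pooled reads, 7 of them in Nkx2.1, Kcnt2 was 566-fold lower in the Nkx2.1 than in the VIP libraries (95% counting interval 274 to 1408), log2 -8.98 (SE 1.62), with the smallest edgeR adjusted p among the channel genes, 0.0667, and 0.0682 to 0.191 with 1 library left out. DESeq2 called it, at an adjusted p of 2.06e-14. Kcnt2 passed the filter through the SOM and VIP libraries, so a lower level in Nkx2.1 was part of its selection. Against SOM it was 155-fold lower in Nkx2.1 libraries (74.8 to 386), log2 -7.17 (SE 1.5), with adjusted p of 0.194 (edgeR) and 9.94e-09 (DESeq2). Between SOM and VIP libraries the log2 fold change was -1.81 (SE 1.17) at an edgeR adjusted p of 1. Kcnt2 shares 41892 bases of gene span, introns included, with the antisense gene 4930590L20Rik. The antisense gene had 3199 reads over the 9 libraries against 4470 for Kcnt2. With no strand setting stated, the reads of the 2 genes may not be separable.

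Kcnt1 (chr2:25863734-25918273, plus strand) stood at 55.1, 188 and 55.2 CPM in Nkx2.1, 129, 29.9 and 1.37 CPM in SOM and 3.19, 0 and 0 CPM in VIP libraries. Every Nkx2.1 library lay above every VIP library, while SOM replicate 3 lay below VIP replicate 1. Kcnt1 passed the filter through Nkx2.1 and SOM libraries, so a lower level in VIP was part of its selection. The mean was 93.5-fold higher in the Nkx2.1 than in the VIP libraries, log2 6.54 (SE 2.52), with adjusted p of 0.271 (edgeR) and 0.011 (DESeq2). For SOM against VIP the log2 fold change was 5.65 (SE 2.41), with adjusted p of 0.669 (edgeR) and 0.0879 (DESeq2).

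BK channels open on both voltage and calcium, with Kcnma1 as the pore and Kcnmb1 to Kcnmb4 as beta subunits. Kcnma1 was at 277, 181 and 167 CPM in Nkx2.1, 104, 108 and 347 CPM in SOM and 62.3, 63.8 and 136 CPM in VIP libraries. The Nkx2.1 libraries lay above the VIP libraries by a log2 fold change of 1.25 (SE 0.7) at an edgeR adjusted p of 0.454. Kcnmb2 (chr3:31902507-32200180, plus strand), the beta subunit that makes BK current inactivate, stood at 141, 422 and 258 CPM in Nkx2.1, 39.4, 69.4 and 18.5 CPM in SOM and 22.9, 15.8 and 61.6 CPM in VIP libraries. Each Nkx2.1 library was above all 6 others, and the SOM and VIP libraries overlapped. The mean was 6.44-fold higher in the Nkx2.1 than in the SOM libraries, log2 2.69 (SE 0.9), with adjusted p of 0.344 (edgeR) and 0.0172 (DESeq2). Against VIP libraries it was 8.17-fold higher, log2 3.03 (SE 0.91), with adjusted p of 0.193 (edgeR) and 0.0048 (DESeq2). Kcnmb4, the neuronal beta subunit, overlapped in every comparison at 29.8 ± 26.3 CPM in Nkx2.1, 21.8 ± 9.03 CPM in SOM and 8.32 ± 6.49 CPM in VIP libraries (SD, n = 3), Kcnmb3 had reads in VIP replicate 1 alone and Kcnmb1 had none.

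The small-conductance SK genes Kcnn1 to Kcnn3, which carry the afterhyperpolarization, overlapped in every comparison. Kcnn2 was at 25.1, 1.86 and 244 CPM in Nkx2.1, 0.425, 43.4 and 10.5 CPM in SOM and 58.6, 13.5 and 57.9 CPM in VIP libraries, and it overlaps the antisense gene A330093E20Rik. Over the 9 SK and BK genes, 6 of them tested, the summed level was 494, 644 and 723 CPM in Nkx2.1, 165, 284 and 446 CPM in SOM and 176, 115 and 279 CPM in VIP libraries. All Nkx2.1 libraries lay above all others in this sum, and Kcnmb2 and Kcnma1 together gave most of it in the Nkx2.1 libraries.

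K2P channels carry leak current, and 10 of 14 had a read. Kcnk2 (TREK1), opened by stretch and lipids, had the highest level per kb of exon among them, at 161, 249 and 74.7 CPM in Nkx2.1, 32.8, 99 and 93.3 CPM in SOM and 32.8, 41 and 98 CPM in VIP libraries, with overlap in every comparison. Kcnk1 (TWIK1; chr8:125995170-126030685, plus strand) had 5, 0 and 0 reads in Nkx2.1 libraries, 267, 235 and 260 in SOM and 506, 608 and 726 in VIP libraries. In CPM these were 0.568, 0 and 0 in Nkx2.1, 28.3, 34.8 and 29.7 in SOM and 62.1, 62.8 and 59.5 in VIP libraries. The groups did not overlap, and within groups the values lay close together, with SDs of 0.328 CPM in Nkx2.1, 3.39 CPM in SOM and 1.72 CPM in VIP libraries (n = 3). By pooled reads, 5 of them in Nkx2.1, Kcnk1 was 199.9-fold lower in the Nkx2.1 than in the SOM libraries (95% counting interval 85.3 to 618), log2 -7.31 (SE 2.13), with adjusted p of 0.313 (edgeR) and 1.67e-08 (DESeq2). It was 401-fold lower than in VIP libraries (171 to 1236), log2 -8.29 (SE 2.22), with adjusted p of 0.167 (edgeR, 0.0647 to 0.316 with 1 library left out) and 1.39e-11 (DESeq2). SOM libraries were 1.99-fold lower than VIP libraries, log2 -0.99 (SE 1.62), at an edgeR adjusted p of 1.

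Kcnk10 (TREK2) was at 2.72, 0 and 0 CPM in Nkx2.1, 0.106, 97.5 and 53.7 CPM in SOM and 0.123, 16.8 and 0 CPM in VIP libraries, with 1 of 3 SOM libraries as low as the Nkx2.1 libraries. Kcnk3 (TASK1), closed by acid, overlapped in every comparison at 10.8 ± 18.1 CPM in Nkx2.1, 19.9 ± 18.3 CPM in SOM and 21.2 ± 17.8 CPM in VIP libraries (SD, n = 3). Kcnk12 (THIK2) had 0 reads in Nkx2.1 libraries, 240, 2 and 40 in SOM and 0, 19 and 0 in VIP libraries, and was at least 123-fold lower in Nkx2.1 than in SOM at an edgeR adjusted p of 0.362. Its lack of overlap between Nkx2.1 and SOM rested on the 2 reads of SOM replicate 2, under the floor. Kcnk4 (TRAAK) also had 0 reads in all Nkx2.1 libraries, and its 0, 27 and 95 reads in SOM and 0, 144 and 39 in VIP libraries leave a library at 0 in each group. Kcnk1, Kcnk4, Kcnk10 and Kcnk12, 4 of the 6 tested K2P genes, passed the filter through the SOM and VIP libraries, since each had at least 2 Nkx2.1 libraries at 0, so a lower level in Nkx2.1 was part of their selection. The summed K2P level overlapped, at 174 ± 71.9 CPM in Nkx2.1, 199.6 ± 69.7 CPM in SOM and 152 ± 41.2 CPM in VIP libraries (SD, n = 3), and Kcnk2 made up most of it in the Nkx2.1 libraries.

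Inward rectifiers pass current best near and below the resting potential. Of 15 genes, 11 had a read and 4 were tested, and they summed to 202, 70.7 and 143 CPM in Nkx2.1, 12, 65.4 and 9.6 CPM in SOM and 0.245, 29.8 and 13 CPM in VIP libraries. Each Nkx2.1 library lay above all others, with Kcnj6 giving most of it in replicates 1 and 3 and Kcnj11 in replicate 2. Kcnj6 (GIRK2), a G-protein-gated subunit, was at 155, 0 and 86.8 CPM in Nkx2.1, 0.106, 9.77 and 0.229 CPM in SOM and 0, 5.58 and 0.164 CPM in VIP libraries. Its Nkx2.1 values were the 2 highest of all libraries and a 0. Kcnj11 (Kir6.2), the pore of the ATP-sensitive channel, was at 0, 70.5 and 12.6 CPM in Nkx2.1, 9.76, 2.81 and 4.57 CPM in SOM and 0, 1.55 and 0.164 CPM in VIP libraries. Kcnj11 passed the filter through Nkx2.1 and SOM libraries, so a lower level in VIP was part of its selection. SOM libraries lay above VIP libraries for Kcnj11, by log2 3.29 (SE 2.49) at an edgeR adjusted p of 1, and DESeq2 gave an adjusted p of 0.0486 for Nkx2.1 against VIP, where edgeR gave 0.387. Of the other GIRK subunits, Kcnj3 had 20, 0 and 0 reads in Nkx2.1, 0, 185 and 5 in SOM and 0, 180 and 154 in VIP libraries. Kcnj9 had 0, 2 and 495 reads in Nkx2.1, 0, 18 and 37 in SOM and 0, 5 and 0 in VIP libraries, and both overlapped in every comparison.

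Kcnj10 (Kir4.1), the rectifier of astrocytes, did not pass the filter. It had 380 reads, 43.1 CPM, in Nkx2.1 replicate 1, 3 reads in SOM replicate 2 and 0 in the other 7 libraries. Nkx2.1 replicate 1 was also the library with the highest astrocyte marker sum, 3563 CPM. The Kir sum of that library also held the 155 CPM of Kcnj6.

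HCN channels carry the pacemaker current Ih. Hcn3 was at 0.681, 93.2 and 0.663 CPM in Nkx2.1, 86.2, 51.5 and 17.4 CPM in SOM and 96.9, 34.2 and 88.6 CPM in VIP libraries, with overlap in every comparison and Nkx2.1 replicate 2 alone high in its group. Hcn2 (chr10:79716634-79736108, plus strand) was low throughout, with 6, 0 and 3 reads in Nkx2.1, 10, 3 and 0 in SOM and 64, 79 and 60 in VIP libraries. VIP libraries lay above all others for Hcn2, with log2 fold changes of -4.45 (SE 2.08) for Nkx2.1 against VIP and -3.76 (SE 2.01) for SOM against VIP. Neither passed, with edgeR adjusted p of 0.346 and 0.904 and DESeq2 adjusted p of 0.0506 and 0.22. Hcn2 was kept by the filter on low counts through the VIP libraries, so a higher VIP level was part of its selection. Hcn4 did not pass the filter and had 2, 0 and 0 reads in Nkx2.1, 8, 138 and 9 in SOM and 0, 61 and 4 in VIP libraries. The HCN sum was 251, 107 and 146 CPM in Nkx2.1, 97.9, 86.7 and 72.8 CPM in SOM and 214, 114 and 129 CPM in VIP libraries, and the SOM libraries were lower than all others.

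Kcnq1 and the noncoding Kcnq1ot1, which lies on the other strand inside it and silences genes of an imprinted domain, share 93092 bases of gene span, introns included. Kcnq1 had 5755, 254 and 98 reads in Nkx2.1, 2027, 849 and 1340 in SOM and 8, 154 and 2598 in VIP libraries. Kcnq1ot1 had 5679, 286 and 93 reads in Nkx2.1, 1516, 766 and 1099 in SOM and 3, 155 and 2585 in VIP libraries. The ratio of Kcnq1 to Kcnq1ot1 lay between 0.888 and 1.34 in 8 libraries and was 2.67 in VIP replicate 1, with 8 and 3 reads. Reads of the 2 genes cannot be told apart without the strand, so the level of Kcnq1 and its 38.2 CPM per kb are uncertain. Spans of genes on the other strand also overlap those of Hcn3, Kcnab1, Kcnab2, Kcnh1, Kcnh3, Kcnh7, Kcnip1, Kcnip4, Kcnj13, Kcnk3 and Kcnn2. These overlaps include introns, so they need not hold counted reads. The Kcnh3 overlap is 1 base, and Kcnmb1, which overlaps Kcnip1, had 0 reads.

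In all, 20 channel genes had 0 reads in all 9 libraries, and these were set beside their neighbours on the chromosome. For 17 of them, between 12 and 19 of the nearest 20 protein-coding genes on the same strand had reads, and the run of genes without a read that holds them was 1 or 2 genes long. These include Kcnk13 and Kcnk18 (K2P), Kcnj1, Kcnj8 and Kcnj15 (Kir), Kcnn4 (SK4) and Kcne1, Kcne3 and Kcne4 (auxiliary). The other 3 lay in long runs in which no gene had a read. Kcnj5 (GIRK4, chr9, minus strand) lay in a run of 461 genes, Kcnip2 (KChIP2, chr19, minus strand) in a run of 121, and Kcnd1 (Kv4.1, chrX, plus strand) in a run of 62. Around Kcnip2 and Kcnj5, 18 and 14 of 20 neighbours on the other strand had reads, and around Kcnd1 none of 20 had. For these 3 genes, 0 reads are no measure of expression. The sums above therefore lack Kcnd1 (Kv class), Kcnip2 (auxiliary class) and Kcnj5 (Kir class), and the summed level of Kv4 and KChIP genes lacks Kcnd1 and Kcnip2.

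**Figure D5:**
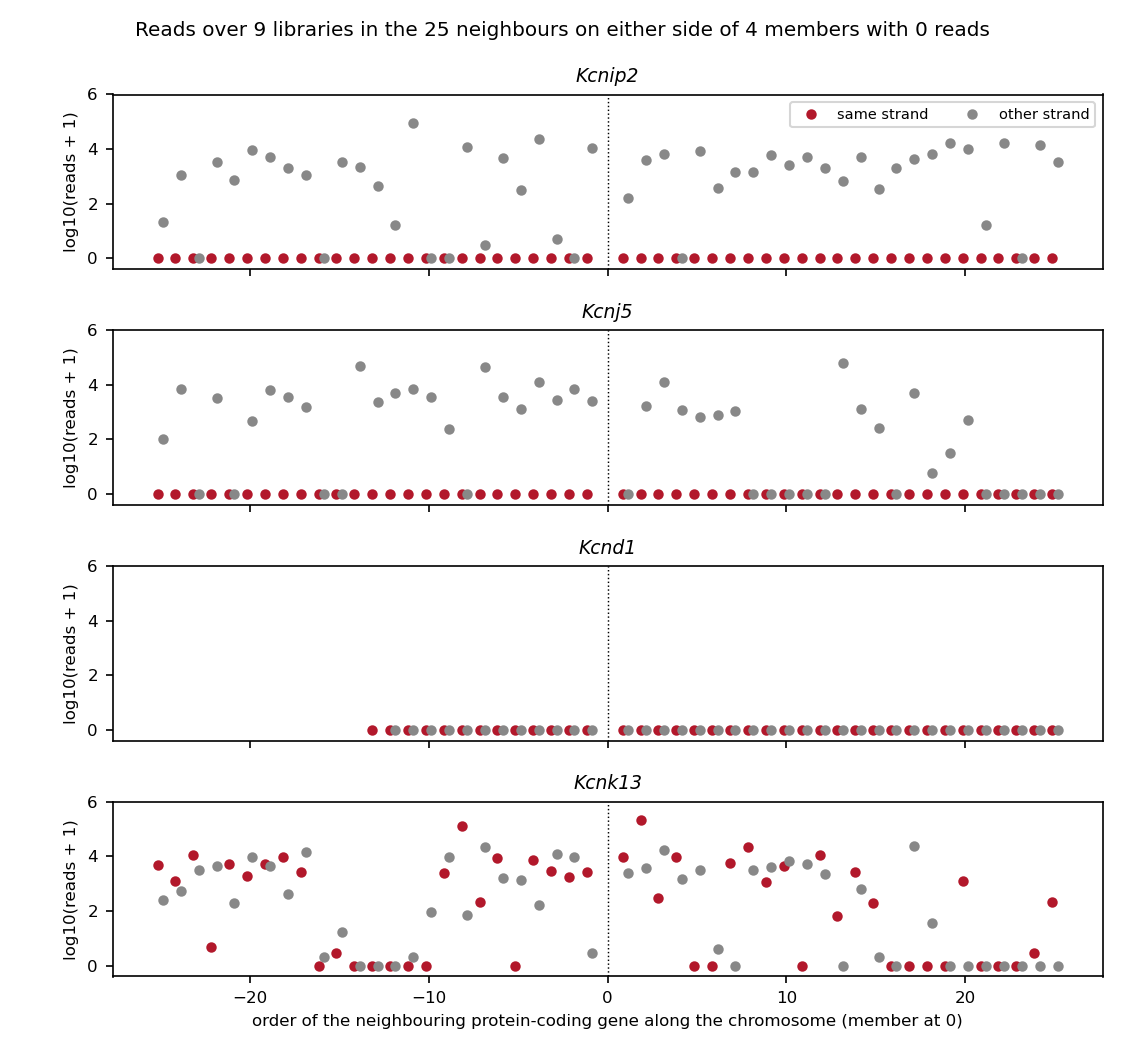
Reads over all 9 libraries, as log10(reads + 1), of the 25 protein-coding neighbours on either side of Kcnip2, Kcnj5, Kcnd1 and, for comparison, Kcnk13, by order along the chromosome with the channel gene at 0. Red points are neighbours on the same strand and grey points those on the other strand, and all red points sit at 0 around Kcnip2, Kcnj5 and Kcnd1 but not around Kcnk13.

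Genes of the same machinery outside the symbol rule were read from a list of 22 partners, all counted and 17 tested. None was called by edgeR in any comparison. At an unadjusted p under 0.05, 1 was higher and 2 lower in Nkx2.1 against SOM (2.92% and 8.38% of all genes), 3 higher and 2 lower in Nkx2.1 against VIP (5.73% and 9.43%), and 2 higher and 1 lower in SOM against VIP (4.63% and 2.36%). DESeq2 called 1 in each comparison, Calm3 as lower in Nkx2.1 against SOM (7.17% of genes with a value), Dpp10 as higher in Nkx2.1 against VIP (4.37%) and Lrrc55 as higher in SOM against VIP (3.11%). Dpp10, the membrane partner of Kv4 channels, was at 932, 626 and 721 CPM in Nkx2.1, 350.3, 328 and 881 CPM in SOM and 178, 20.2 and 178 CPM in VIP libraries. Like Kcnd2, it was lower in each VIP library than in every other, with log2 2.60 (SE 0.74) for Nkx2.1 against VIP at adjusted p of 0.179 (edgeR) and 0.033 (DESeq2). For SOM against VIP it was log2 2.05 (SE 0.73), with adjusted p of 0.52 (edgeR) and 0.268 (DESeq2). Dpp6, its relative, overlapped in every comparison at 449 ± 433 CPM in Nkx2.1, 421 ± 149.8 CPM in SOM and 369 ± 141 CPM in VIP libraries (SD, n = 3). The calmodulin gene Calm3, whose product is the calcium sensor of SK and Kv7 channels, was at 113, 199.9 and 276 CPM in Nkx2.1, 678, 722 and 544 CPM in SOM and 519, 565 and 374 CPM in VIP libraries. Nkx2.1 libraries lay below all others, with adjusted p of 0.287 (edgeR) and 0.0313 (DESeq2) against SOM and 0.216 (edgeR) and 0.106 (DESeq2) against VIP. The calmodulin gene Calm2 was at 290.3 ± 86.5 CPM in Nkx2.1, 225 ± 22.2 CPM in SOM and 190.1 ± 13.4 CPM in VIP libraries (SD, n = 3), with each Nkx2.1 library above each VIP library. Ank3, which encodes the ankyrin-G scaffold that holds Kv7 channels at the initial segment, was at 1083, 1121 and 1598 CPM in Nkx2.1, 514, 523 and 865 CPM in SOM and 552, 142 and 864 CPM in VIP libraries. The Nkx2.1 libraries lay above all others for Ank3, at edgeR adjusted p of 0.555 against SOM and 0.305 against VIP. Lrrc55, a BK subunit, had 19, 0 and 0 reads in Nkx2.1, 1, 687 and 176 in SOM and 0 in VIP libraries. DESeq2 called it for SOM against VIP (adjusted p 0.0148, edgeR 0.534), on the reads of SOM replicates 2 and 3. Lrrc55 passed the filter without any VIP library, so a lower level in VIP was part of its selection. Its relatives Lrrc26, Lrrc38 and Lrrc52 had no read. The neighbours of these relatives were not examined, so their 0 reads may be counting gaps.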

How the data were processed

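For each library the authors deposited raw counts of reads by gene symbol. The submitters' processing notes name TopHat2 2.0.9, DESeq2 and mm10 without their roles, while counter and strand setting were not given in the sources used here. The 5 summary entries, 83.6% to 85.2% of each table, entered neither library sizes nor tests. Counts of all 9 libraries were fitted in R 4.3.3 with edgeR 4.0.16 (quasi-likelihood test, TMM, filterByExpr with a minimum count of 10, group as the only term), and p-values were adjusted by Benjamini-Hochberg over 10728 genes, with a threshold of 0.05. The script was tested on simulated data. Folds are ratios of mean CPM. For a gene with 0 reads in a group they are bounds at 3 reads over the group, and for 1 to 3 reads, and for Kcnt2 and Kcnk1 in Nkx2.1, they are pooled ratios with a 95% counting interval. SE is the log2 value over the root of its F statistic. Exon lengths, coordinates and neighbours come from GENCODE M21 (GRCm38, which is mm10), where all 98 symbols matched. Alternatives were DESeq2 1.42.0, its size factors in edgeR, no filter, a replicate block and each library left out. The members and lists were chosen with earlier results of these data known. Genes were named by level (4 per class), by smallest p (6 per comparison) and as HCN genes, and others after their values were seen. Values of 4 channel genes and of 1 partner gene are not reported here.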

Additional observations from a re-analysis of the deposited data

How the results depend on the processing

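The count of 0 channel genes called by edgeR held in each comparison and direction with DESeq2's size factors, without the filter and with each library left out. DESeq2's own test called 1 higher and 7 lower for Nkx2.1 against SOM, 6 and 6 for Nkx2.1 against VIP and 2 and 0 for SOM against VIP. No pairing of the libraries by replicate number was seen. Deviations of same-numbered libraries correlated at -0.041 to 0.067 and those of differently numbered libraries at -0.071 to 0.062. With 3 libraries a group, a shared animal or batch could go unseen, and the labels do not settle it. The fit with a replicate block also called 0. With 1 library left out, channel genes without overlap numbered 1 to 6 higher and 11 to 17 lower for Nkx2.1 against SOM, 7 to 10 and 5 to 13 for Nkx2.1 against VIP, and 5 to 11 and 4 to 10 for SOM against VIP, where smaller groups overlap less by construction. The counts moved by more than 1.5 times without Nkx2.1 replicates 1, 2 or 3 or SOM replicates 1 or 3 (Nkx2.1 against SOM), without Nkx2.1 replicates 2 or 3 or VIP replicate 1 (Nkx2.1 against VIP), and without any SOM or VIP replicate (SOM against VIP). Of 507 alternative values of the 39 log2 fold changes of channel genes with an unadjusted p under 0.05 or no overlap, 505 kept their direction, 20 were called, all by DESeq2, and 2 came to 0: Kcns1 for Nkx2.1 against SOM without SOM replicate 3 (-9.67 to 0 over the left-out libraries) and Kcnv1 for Nkx2.1 against VIP without VIP replicate 2 (-11.35 to 0). The text prints no value of the other 57 log2 fold changes of named channel genes, of which 26 changed direction in some alternative and 1, Kcnj11 for Nkx2.1 against VIP, was called, by DESeq2. Over the left-out libraries the median log2 fold change of channel genes spanned -0.69 to 0.27 (Nkx2.1 against SOM), -0.90 to 0.61 (Nkx2.1 against VIP) and 0.07 to 0.75 (SOM against VIP), so that its sign is not fixed for either Nkx2.1 comparison. Low counts limit most K2P, Kir and silent Kv genes.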
